A study of Homo sapiens with 8 samples.

Results

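Keratins are the intermediate filament proteins of epithelial cells, and their mRNA was measured here in HCT116 clones. HCT116 is a human line from a colorectal cancer. The members are all array probes whose gene name is KRT followed by a number from 1 to 86 and an optional letter. Keratin-associated proteins, pseudogenes and *KRT20* were left out by this rule. It found 62 of 50599 distinct probes, which represent 53 keratin genes, 27 of type I and 26 of type II. CONT1 and CONT2 carried the pcDNA6.2-GW/EmGFP-miR-neg plasmid, which expresses a negative control miRNA. TET1-KD1 and TET1-KD2 carried the corresponding vectors with artificial miRNAs against *TET1*, an enzyme that oxidizes 5-methylcytosine, and the miRNA differed between them. All 4 were stable clones selected with G418. Each clone was analyzed without drug and after 1 µM 5-aza-dC, a cytosine analog that traps DNA methyltransferases, for 72 h. With 1 array per clone and treatment, there were 8 arrays and 2 clones per condition. The spread between replicates is therefore a spread between clones. The titles were followed for the treatment, because a separate label gives mock for every control array and 5-aza-dC for every knockdown array.

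The 2 treated control arrays were hybridized on a second slide and the other 6 arrays on the first. In the control clones, slide and treatment cannot be told apart, whereas both comparisons of untreated arrays and of the knockdown clones lie within the first slide. Before scaling between arrays, the spike-in controls were lower on the second slide by between 0.05 and 1.01 on the log2 scale, with the dimmer ones moving more. The 75th percentile used for scaling was also lower there, 395.5 and 476.1 against 546.3 to 623.7 on the first slide. The spike-in shifts are therefore not those of the scaled signals given below. The number of spots well above background ranged from 29490 to 34276 per array, and arrays of the same condition correlated at 0.979 to 0.989. Of 6 colorectal epithelium markers, *CDH1*, *CDX2*, *CLDN4*, *ELF3* and *EPCAM* were above background on all 8 arrays. The remaining marker, *VIL1*, was above background on no untreated array and on 1 treated array of each kind of clone, and was not tested. Its log2 signals were 2.18 to 2.63 untreated and 3.18 to 5.40 treated. Of the 5 tested markers, *ELF3* (log2 difference -2.41, adjusted p = 0.00246) and *EPCAM* (-0.89, adjusted p = 0.0416) were lower after 5-aza-dC in the control clones. That is 40% called, against 41.8% of all genes, and 0 passed in the knockdown clones. Without drug, *TET1* itself had log2 signals of 9.70 (CONT1), 9.75 (CONT2), 8.65 (TET1-KD1) and 9.41 (TET1-KD2). The difference of -0.69 between the kinds of clone did not pass the test (adjusted p = 0.610), and after 5-aza-dC the 4 values were 9.64, 9.64, 8.99 and 9.48. For the other 2 tested *TET1* probes the untreated differences were -0.98 (adjusted p = 0.585) and -2.14 (adjusted p = 0.370).

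A keratin filament is built from pairs of a type I (acidic) and a type II (basic) chain, so every epithelial cell expresses at least one of each. *KRT8*, *KRT18* and *KRT19* form the filaments of simple epithelia such as the colon, and *KRT7* is a simple epithelial keratin of ducts. *KRT5* with *KRT14* marks the basal layer of stratified epithelia, and *KRT6A*, *KRT6B*, *KRT6C*, *KRT16* and *KRT17* are induced in wounded or stressed epidermis. Other pairs belong to the upper layers of palm, cornea, oesophagus or skin, and the hair keratins build the hard shaft of hair and nail. Apart from *KRT18*, the type I genes lie in one cluster on chromosome 17 and the type II genes in another on chromosome 12.

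The start regions of 5 of these genes are shown because DNA methyltransferases act on cytosines in CpG dinucleotides, and because *KRT5*, *KRT9*, *KRT12* and *KRT31* were higher in treated clones of 1 or both kinds while *KRT3* was not. Each sequence is the 250 bases upstream of the gene's start in RefSeq (GRCh38.p14, minus strand, read 5′ to 3′), with every CG in capitals. The windows are chr12:52520395-52520644 for *KRT5*, chr17:41572060-41572309 for *KRT9*, chr17:40867224-40867473 for *KRT12*, chr17:41397609-41397858 for *KRT31* and chr12:52796118-52796367 for *KRT3*.
KRT5: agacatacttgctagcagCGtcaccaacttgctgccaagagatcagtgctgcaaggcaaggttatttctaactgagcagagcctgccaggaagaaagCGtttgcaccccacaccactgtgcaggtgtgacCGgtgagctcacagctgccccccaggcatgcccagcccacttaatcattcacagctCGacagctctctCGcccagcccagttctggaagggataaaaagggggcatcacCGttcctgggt
KRT9: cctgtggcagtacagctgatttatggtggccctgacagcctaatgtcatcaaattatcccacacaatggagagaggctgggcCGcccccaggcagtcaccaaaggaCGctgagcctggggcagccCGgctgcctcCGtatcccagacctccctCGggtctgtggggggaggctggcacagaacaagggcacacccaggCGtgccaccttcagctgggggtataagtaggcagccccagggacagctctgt
KRT12: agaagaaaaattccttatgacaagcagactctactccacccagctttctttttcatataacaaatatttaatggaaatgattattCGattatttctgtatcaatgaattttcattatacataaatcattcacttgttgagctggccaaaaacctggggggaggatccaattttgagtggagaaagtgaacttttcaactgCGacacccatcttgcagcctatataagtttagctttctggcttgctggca
KRT31: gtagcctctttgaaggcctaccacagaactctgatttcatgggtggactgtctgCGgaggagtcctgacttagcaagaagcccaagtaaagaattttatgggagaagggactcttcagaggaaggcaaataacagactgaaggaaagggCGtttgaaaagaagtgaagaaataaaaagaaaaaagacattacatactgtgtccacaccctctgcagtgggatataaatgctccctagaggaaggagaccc
KRT3: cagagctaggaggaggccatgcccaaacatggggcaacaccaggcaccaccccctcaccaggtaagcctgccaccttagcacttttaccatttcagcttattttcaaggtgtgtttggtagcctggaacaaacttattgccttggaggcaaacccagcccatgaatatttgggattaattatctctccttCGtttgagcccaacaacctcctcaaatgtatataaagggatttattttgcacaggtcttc
The windows of *KRT5* and *KRT9* hold 6 CG each, those of *KRT12* and *KRT31* hold 2 each, and that of *KRT3* holds 1. Over the 31 keratin genes with exactly 1 window in the table, the number of CG ranged from 0 to 7 with a median of 2. Over all 22114 genes with exactly 1 window the median was 9, with quartiles of 2 and 22. At least 1 CG was present in 77.4% of the keratin windows and in 93.1% of all windows. The letters TATAAA, searched on both strands, were present in 20 keratin windows (64.5%) and in 11.8% of all windows. The windows of *KRT31* and *KRT3* hold TATAAA on the coding strand, starting at positions 222 and 221 of the window. The 20 keratin genes without a window are *KRT1*, *KRT6A*, *KRT6B*, *KRT6C*, *KRT7*, *KRT13*, *KRT14*, *KRT15*, *KRT16*, *KRT17*, *KRT18*, *KRT19*, *KRT23*, *KRT72*, *KRT77*, *KRT78*, *KRT80*, *KRT81*, *KRT83* and *KRT86*.

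Of the 53 keratin genes, 32 had a probe whose 2 arrays were above background in 1 or more of the conditions, and these were tested, 17 of type I and 15 of type II. In 19 of them the brightest probe was above background on all 8 arrays. *KRT5*, *KRT6B*, *KRT6C*, *KRT14*, *KRT16* and *KRT17*, which are 6 genes of stratified epithelia, were above background on no untreated array. They passed the filter only through treated arrays, so their direction was partly fixed by it. *KRT6A*, *KRT12*, *KRT37*, *KRT39* and *KRT74* were above background on 1 untreated array each. They too passed only through treated arrays, with the same limit. The other 21 genes (23 probes) were not tested, and 16 of these were above background on no array. The remaining 5, *KRT4*, *KRT27*, *KRT33B*, *KRT40* and *KRT72*, were above background on 1 or 2 arrays only. The log2 signal of the untested probes lay between 1.79 and 7.86. Signals are comparable for one probe across arrays but not between probes.

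**Figure D1:**
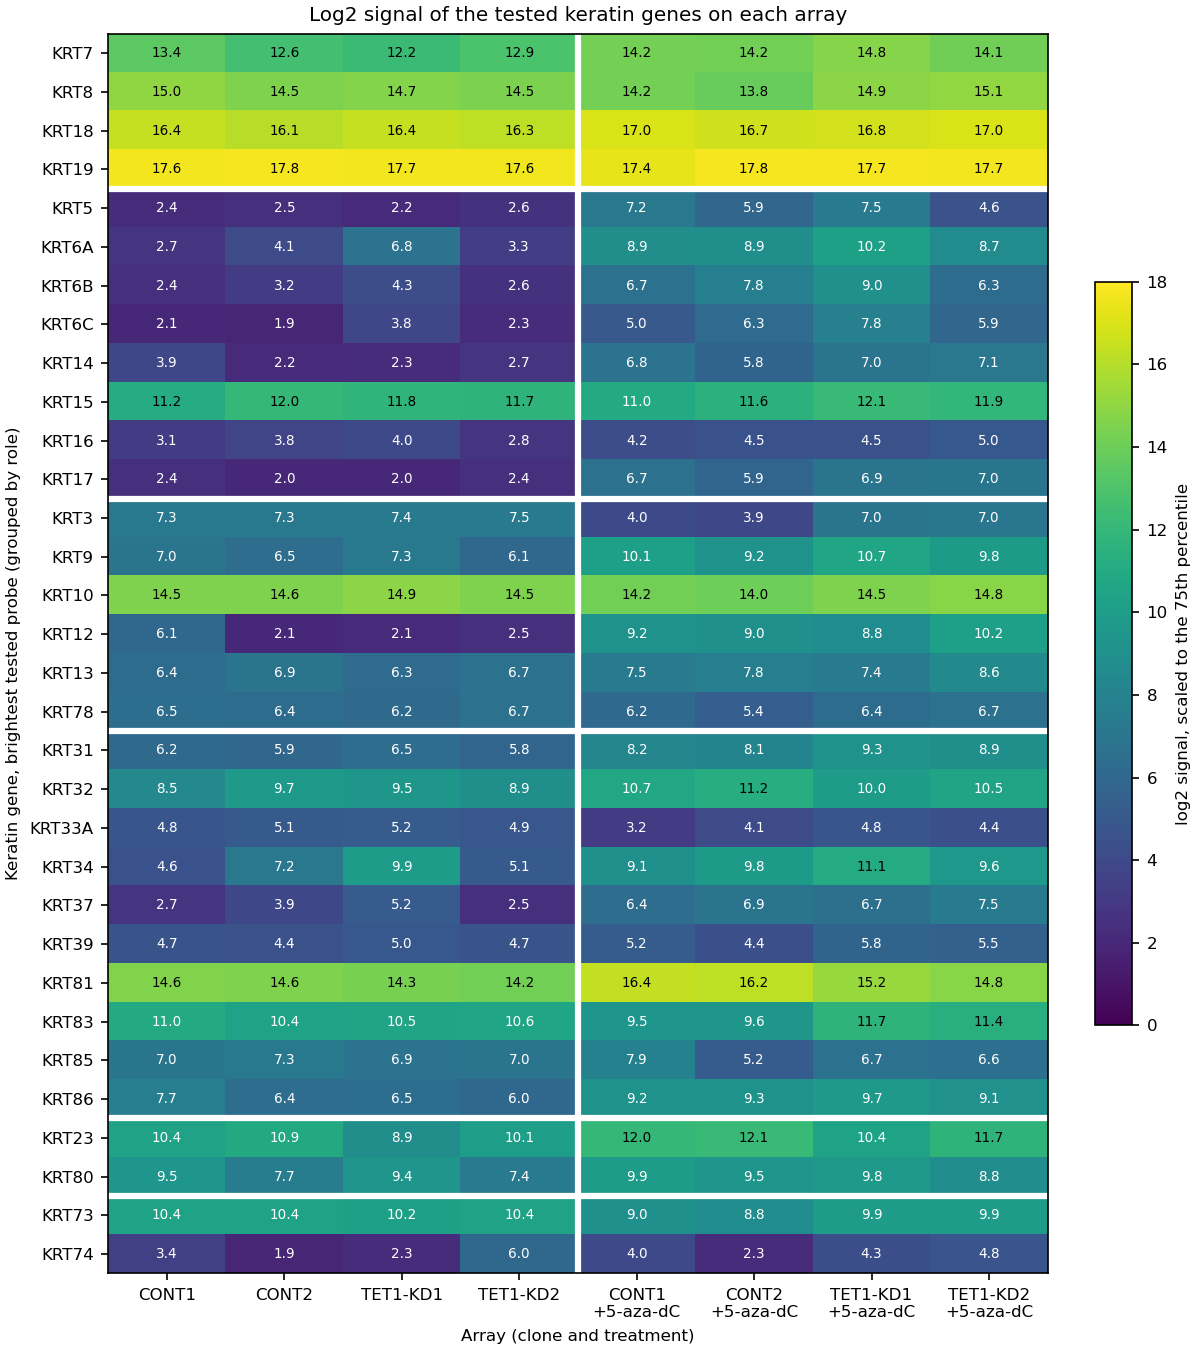
Log2 signal (scaled to each array's 75th percentile) of the brightest tested probe of each of the 32 tested keratin genes, in rows grouped by role, on each of the 8 arrays, in columns. *KRT8*, *KRT18* and *KRT19* stayed near their untreated colour, while *KRT12*, *KRT17*, *KRT14*, *KRT5* and *KRT6A* to *KRT6C* changed from dark (at most 6.83) to brighter colours (at least 4.62) on the treated arrays. Colours can be compared along a row only.

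The response to 5-aza-dC was read in each kind of clone. In the knockdown clones 11 of the 32 tested keratin genes were higher and 0 were lower (34.4%), against 12.5% of all 19688 tested genes, of which 9.45% were higher and 3.09% lower. In the control clones 15 were higher and 5 lower (62.5%), against 41.8% of all tested genes, of which 20.5% were higher and 21.3% lower. The median log2 difference of the tested keratin genes was 1.18 (knockdown clones) and 1.15 (control clones), and that of all genes was -0.06 and -0.05. Since some members passed the filter only where they were high, these counts and medians are descriptions. The untreated signals were not above background for 5 of the 11 higher genes in the knockdown clones and for 7 of the 15 in the control clones, and with dim signals at their lower bounds the medians were 0.99 and 1.15. When the test was limited to the 19 keratin genes above background on every array, 4 were higher and 0 lower in the knockdown clones, and 7 higher and 3 lower in the control clones. These counts were not set against those of all genes under the same limit. By the methods' t-test after Benjamini-Hochberg adjustment 0 of the 32 keratin genes passed in the knockdown clones, and 2 were higher and 2 lower in the control clones. In the knockdown clones 0 of all 27287 tested probes passed by this t-test, so the 0 there is not specific to keratins. In the knockdown clones 5 of 17 type I genes were higher with a median of 1.52, and 6 of 15 type II genes with a median of 0.87. For the control clones these counts were 8 type I genes higher and 1 lower (median 1.40), and 7 type II genes higher and 4 lower (median 1.13). Treated and untreated arrays pointed the same way in both clones of a kind for most members. Of 32 genes, 25 were higher and 4 lower in both knockdown clones, and 21 were higher and 9 lower in both control clones. This count was not made over all genes, and for members tested only through treated arrays the direction was partly fixed by the filter. By the mean of 2 clones, 27 of the 32 keratin genes were higher in the knockdown clones and 22 in the control clones. Of all 19688 genes, 8754 and 9423 were higher. With only the first slide in the fit, 7 keratin genes passed the test in the knockdown clones, namely *KRT6C*, *KRT9*, *KRT12*, *KRT14*, *KRT17*, *KRT31* and *KRT86*. Without the untreated TET1-KD2 array 4 passed there, and without the treated TET1-KD1 array or either treated control array 7 did. In the control clones 11 passed without the untreated CONT1 array or without the treated CONT2 array. Whichever array was left out, *KRT9*, *KRT14*, *KRT17* and *KRT31* passed in both kinds of clone, and *KRT3*, *KRT73*, *KRT81* and *KRT83* in the control clones, while each other call was lost without at least 1 array. In bulk RNA, a change in the number of expressing cells and a change in RNA per cell cannot be told apart.

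**Figure D2:**
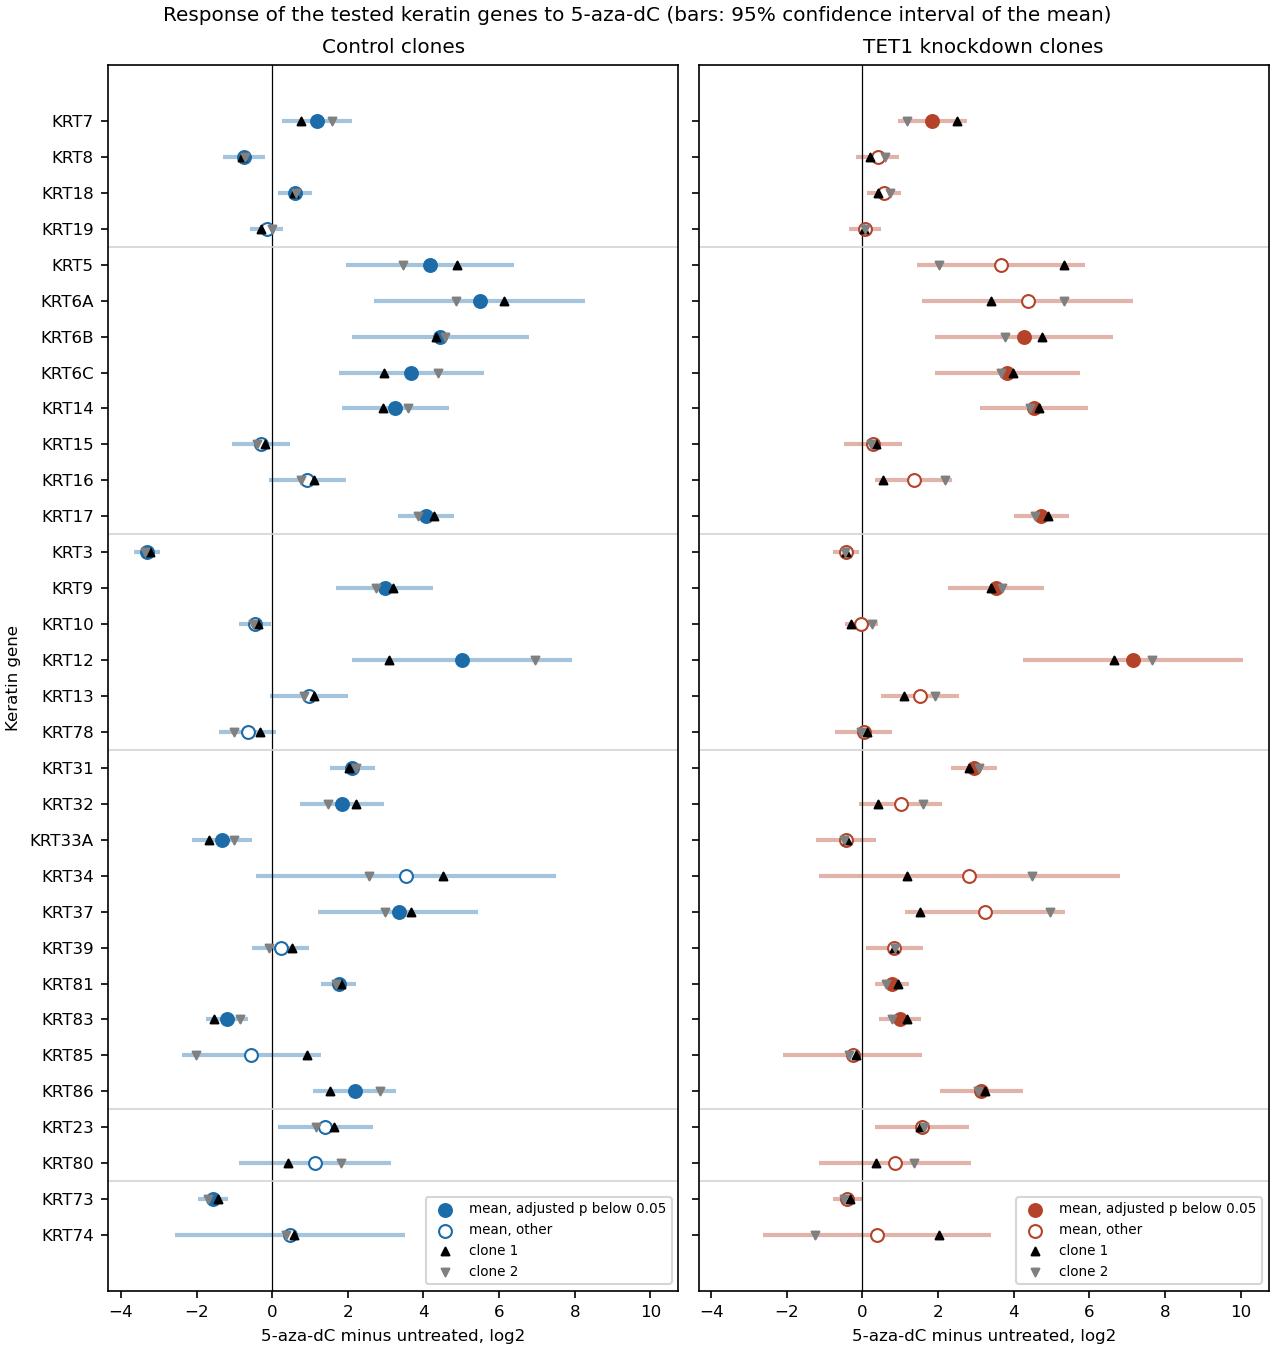
Treated minus untreated log2 signal of the 32 tested keratin genes in the control clones (left) and the *TET1* knockdown clones (right), with the mean of 2 clones as a circle, its 95% confidence interval as a bar and the single clones as triangles. Filled circles mark adjusted p below 0.05. Filled circles lie right of 0 for all 11 genes that passed in the knockdown clones, and left of 0 for 5 of 20 in the control clones. For genes with untreated signals not above background, the plotted difference depends on the background signal.

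Of the 8 tested basal and stress keratins, 6 were higher in control clones and 4 in knockdown clones (75% and 50%, against 41.8% and 12.5% of all genes). All of these had untreated signals not above background in the comparison. Each of the 8 genes except *KRT15* was tested only through its treated arrays, so the counts describe the genes that passed the filter. The median log2 difference was 3.87 in control and 4.05 in knockdown clones, or 1.99 and 2.51 with such genes at their lower bound. *KRT17*, a type I keratin of wounded epidermis and of basal-like tumors, had untreated log2 signals of 2.41 and 2.04 (CONT1 and CONT2) and of 2.02 and 2.40 (TET1-KD1 and TET1-KD2). After 5-aza-dC its signals were 6.69, 5.89, 6.92 and 6.97 in the same order, which is used throughout, so that every treated array stood above every untreated one. It was at least 5.83-fold higher in the knockdown clones (log2 difference 4.73, SE 0.30, adjusted p = 2.7e-04) and at least 3.93-fold higher in the control clones (4.07, SE 0.30, adjusted p = 3.0e-04). These are lower bounds, set against the dimmest signal well above background on each array, because the untreated signals were not well above background. *KRT14*, the basal type I keratin, measured 3.91, 2.22, 2.28 and 2.69 in the untreated clones and 6.83, 5.81, 6.95 and 7.11 in the treated ones. It was at least 6.18-fold higher in the knockdown clones (4.54, SE 0.59, adjusted p = 0.00475) and at least 4.02-fold higher in the control clones (adjusted p = 0.00678). A second *KRT14* probe also passed in both kinds of clone, at least 4.40-fold (knockdown) and at least 2.34-fold (control). The third was above background on the treated knockdown arrays alone, at least 1.37-fold higher there (adjusted p = 0.0240). *KRT5*, its type II partner, rose from 2.35, 2.46, 2.20 and 2.60 to 7.24 and 5.91 in the control clones, at least 4.79-fold (adjusted p = 0.0136). Its treated signals were 7.52 in TET1-KD1 and 4.62 in TET1-KD2, and the difference of 3.67 (SE 0.92) did not pass the test in the knockdown clones (adjusted p = 0.0528).

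*KRT6A*, *KRT6B* and *KRT6C* are closely related type II genes that lie side by side on chromosome 12 and pair with *KRT16* and *KRT17*. The files list each of their probes with transcripts of 1 gene. Untreated *KRT6A* measured 2.73, 4.08, 6.83 and 3.34, and only TET1-KD1 was above background. The gene thus passed the filter only through treated arrays. After 5-aza-dC the values were 8.86, 8.93, 10.23 and 8.67, which separated treated from untreated arrays. The gene was at least 23.9-fold higher in the control clones (5.49, SE 1.15, adjusted p = 0.0116). In the knockdown clones the difference was 4.37 (SE 1.15, adjusted p = 0.0619), and with the clone as a block the adjusted p was 0.0216. *KRT6B* went from 2.40, 3.18, 4.26 and 2.58 to 6.72, 7.76, 9.02 and 6.35, at least 7.58-fold in the control clones (adjusted p = 0.0133) and at least 9.55-fold in the knockdown clones (adjusted p = 0.0400). The call in the knockdown clones was lost in the fit of the first slide alone (adjusted p = 0.0696). *KRT6C* went from 2.06, 1.90, 3.83 and 2.27 to 5.02, 6.29, 7.82 and 5.94, at least 2.53-fold (adjusted p = 0.0127) and at least 5.58-fold (adjusted p = 0.0296). After the drug all 3 genes were highest in TET1-KD1. *KRT15*, a type I keratin of basal cells, was above background throughout and stayed between 10.98 and 12.12, with differences of -0.29 (SE 0.32) and 0.29 (SE 0.32). *KRT16* did not pass the test in either kind of clone.

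Among the suprabasal and terminal keratins, 2 of 6 tested genes were higher in the knockdown clones, and 2 were higher and 1 lower in the control clones (33.3% and 50%, against 12.5% and 41.8% of all genes). *KRT12* is the type I keratin of corneal epithelium. Its untreated signals were 6.07, 2.09, 2.13 and 2.5, and they became 9.16, 9.04, 8.77 and 10.15 after the drug. Without drug only CONT1 was above background, so the gene passed the filter only through treated arrays. The gene was at least 33.4-fold higher in the knockdown clones (7.15, SE 1.20, adjusted p = 0.0141) and differed by 5.02 in the control clones (SE 1.20, adjusted p = 0.0183). The single control clones were far apart, with differences of 3.09 in CONT1 and 6.95 in CONT2. *KRT9*, the type I keratin of palm and sole, was above background on all arrays. It rose from 6.95, 6.45, 7.26 and 6.10 to 10.14, 9.20, 10.65 and 9.79, a difference of 2.97 in the control clones (SE 0.52, 7.82-fold, adjusted p = 0.00631) and of 3.54 in the knockdown clones (SE 0.52, 11.6-fold, adjusted p = 0.00840). The 4 treated arrays lay above all 4 untreated arrays. *KRT13*, a keratin of the oesophageal lining, measured 6.39, 6.93, 6.28 and 6.70 without drug and 7.49, 7.77, 7.40 and 8.62 with it. Its differences of 0.97 and 1.52 did not pass the test (adjusted p = 0.112 and 0.0724), but did with the clone as a block (adjusted p = 0.0334 and 0.0310). *KRT10*, the main type I keratin of the upper epidermis, stayed between 14.04 and 14.86, and *KRT78* between 5.38 and 6.74, and neither passed the test. By interpolation on the spike-ins *KRT10* passed as lower in the control clones.

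*KRT3*, the corneal type II partner of *KRT12*, moved the other way. Its signals were 7.27, 7.26, 7.39 and 7.51 without drug, 4.03 in CONT1 and 3.89 in CONT2 after it, and 6.96 in TET1-KD1 and 7.05 in TET1-KD2 after it. Both treated control arrays, which are the arrays of the second slide, were not well above background for this probe. The gene was at least 6.80-fold lower there (log2 difference -3.30, SE 0.14, adjusted p = 5.3e-05). In the knockdown clones the difference was -0.44 (SE 0.14, adjusted p = 0.106), and the difference between the kinds of clone in this response was 2.86 (SE 0.20, adjusted p = 0.00747). *KRT73*, a type II keratin of the inner root sheath of hair, was also lower in the control clones. It measured 10.45 in both untreated control clones, 10.21 in TET1-KD1 and 10.38 in TET1-KD2, and 9.02, 8.75, 9.90 and 9.90 after the drug. The difference was -1.56 in the control clones (SE 0.16, adjusted p = 8.8e-04) and -0.40 in the knockdown clones (adjusted p = 0.168). The difference in response was 1.16 (SE 0.22, adjusted p = 0.0409) and did not pass with the clone as a block (adjusted p = 0.0562).

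The hair shaft keratins had 10 tested genes, of which 4 were higher in the knockdown clones, and 5 were higher and 2 lower in the control clones. These shares were 40.0% and 70.0%, against 12.5% and 41.8% of all genes. *KRT31*, a type I hair keratin, measured 6.20, 5.93, 6.46 and 5.85 in the untreated clones and 8.22, 8.14, 9.27 and 8.93 in the treated ones. The treated arrays did not overlap the untreated ones. The gene was 7.71-fold higher in the knockdown clones (2.95, SE 0.25, adjusted p = 7.9e-04) and 4.33-fold higher in the control clones (2.12, SE 0.25, adjusted p = 0.00146). *KRT86*, a type II hair keratin, went from 7.72, 6.42, 6.51 and 6.03 to 9.24, 9.26, 9.74 and 9.08, which was 8.82-fold in the knockdown clones (3.14, SE 0.45, adjusted p = 0.00773) and 4.54-fold in the control clones (2.18, SE 0.45, adjusted p = 0.0113). *KRT81*, a type II hair keratin, had high signals of 14.57, 14.55, 14.28 and 14.16 without drug, which became 16.37, 16.25, 15.21 and 14.77. It was 3.38-fold higher in the control clones (1.76, SE 0.19, adjusted p = 0.00104) and 1.71-fold higher in the knockdown clones (0.77, SE 0.19, adjusted p = 0.0496). With the first slide alone the latter call was lost (adjusted p = 0.0833). After 5-aza-dC *KRT81* was lower in knockdown than in control clones (-1.32, SE 0.19, adjusted p = 0.00786), a comparison across the slides.

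The brightest *KRT83* probe is listed in the files with transcripts of 4 hair keratin genes, *KRT81*, *KRT83*, *KRT85* and *KRT86*, and the second with *KRT83* and *KRT86*. They disagreed in the control clones. The brightest probe measured 10.98, 10.42, 10.51 and 10.58 without drug and 9.46, 9.56, 11.69 and 11.36 after it. It was lower in the treated control clones (-1.19, SE 0.23, adjusted p = 0.00856) and higher in the treated knockdown clones (0.98, SE 0.23, adjusted p = 0.0432), and the latter call was lost with the clone as a block (adjusted p = 0.0614) and with the first slide alone (adjusted p = 0.0778). The second probe measured 4.51, 2.93, 2.22 and 2.61 without drug and 7.15, 7.82, 8.09 and 7.07 after it, at least 8.64-fold higher in the control clones (adjusted p = 0.00411) and at least 9.07-fold in the knockdown clones (adjusted p = 0.00280). The direction of *KRT83* in the control clones is therefore uncertain.

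Among the other hair keratins, *KRT32* rose in the control clones from 8.49 and 9.71 to 10.7 and 11.20 (1.85, SE 0.46, adjusted p = 0.0208). In the knockdown clones it measured 9.53 and 8.95 before and 9.96 and 10.54 after the drug (adjusted p = 0.218). *KRT37* went from 2.71 and 3.91 to 6.40 and 6.90 in the control clones, at least 5.04-fold (adjusted p = 0.0251), and from 5.15 and 2.49 to 6.65 and 7.45 in the knockdown clones (adjusted p = 0.0664). It was tested only through its treated arrays. *KRT33A*, close to background, was lower in the control clones, from 4.83 and 5.08 to 3.17 and 4.08 , at least 1.38-fold since the treated signals were not above background (adjusted p = 0.02). It measured 5.19 and 4.90 before and 4.79 and 4.42 after the drug in the knockdown clones (adjusted p = 0.442). With normexp background correction the *KRT33A* difference in the control clones was -0.01. *KRT85* lay between 6.60 and 7.27 on all arrays other than treated CONT1 (7.89) and treated CONT2 (5.25), and did not pass the test.

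The simple epithelial keratins were high on all arrays. *KRT19* measured 17.65, 17.76, 17.68 and 17.60 without drug and 17.36, 17.75, 17.73 and 17.68 after it. Its difference was -0.15 in the control clones (95% confidence interval -0.58 to 0.28) and 0.06 in the knockdown clones (-0.36 to 0.49). By interpolation on the spike-ins *KRT19* passed as lower in the control clones. *KRT18* measured 16.39, 16.08, 16.40 and 16.26, and 16.97, 16.71, 16.80 and 17.01 after the drug. The difference was 0.61 in the control clones (SE 0.19, adjusted p = 0.0431) and 0.57 in the knockdown clones (SE 0.19, adjusted p = 0.109). The call in the control clones was lost when any 1 of the 8 arrays was left out, and by interpolation on the spike-ins the difference was -0.16 (adjusted p = 0.534). A second *KRT18* probe differed by -0.03 (adjusted p = 0.896) and 0.76 (adjusted p = 0.0490), so the probes disagree on which kind of clone passed. *KRT8*, the type II partner of *KRT18*, measured 15.00, 14.52, 14.65 and 14.48 without drug and 14.21, 13.82, 14.86 and 15.06 with it. It was lower in the control clones (-0.75, SE 0.23, adjusted p = 0.0423) and differed by 0.40 in the knockdown clones (adjusted p = 0.326), and the other 2 *KRT8* probes passed in neither. *KRT7*, the type II keratin of ductal epithelia, measured 13.45, 12.59, 12.24 and 12.90 before and 14.22, 14.17, 14.75 and 14.10 after the drug. It was 3.60-fold higher in the knockdown clones (1.85, SE 0.38, adjusted p = 0.0295) and 2.26-fold higher in the control clones (1.18, SE 0.38, adjusted p = 0.0487). Both calls were lost with the clone as a block (adjusted p = 0.0552 and 0.0709).

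Without drug, no keratin gene passed the test between knockdown and control clones. By limma 0 of 32 tested keratin genes passed the adjusted threshold and 0 had an unadjusted p below 0.05, and the methods' t-test also passed 0. Over all genes 4 of 19688 passed (0.0203%). The median keratin difference was -0.01 and that of all genes 0.01. Some genes varied between clones of one kind. The probe of *KRT34*, a type I hair keratin, is also listed with a transcript of *LOC100653049*. It measured 4.56, 7.24, 9.92 and 5.08 without drug, and 9.07, 9.80, 11.09 and 9.57 after the drug. The difference of TET1-KD2 from TET1-KD1 was -4.84 on the log2 scale. The treatment differences of 3.54 and 2.83 (SE 1.64 each) did not pass the test, and with the clone as a block that in the control clones did (adjusted p = 0.0423). *KRT6A* and *KRT37* were also highest in TET1-KD1 among the untreated clones. *KRT80*, a type II keratin found in many epithelia, measured 9.48 in CONT1 and 9.40 in TET1-KD1 but 7.65 in CONT2 and 7.43 in TET1-KD2, and 9.91, 9.77, 9.48 and 8.80 in that order after the drug. *KRT23*, a type I keratin, measured 10.39, 10.95, 8.92 and 10.06 without drug and 12.02, 12.11, 10.44 and 11.68 with it. Every clone was higher after the drug, and the differences of 1.40 and 1.57 (SE 0.52 each) passed only with the clone as a block (adjusted p = 0.00669 and 0.0125). The second *KRT23* probe differed by 0.10 and 1.43.

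**Figure D3:**
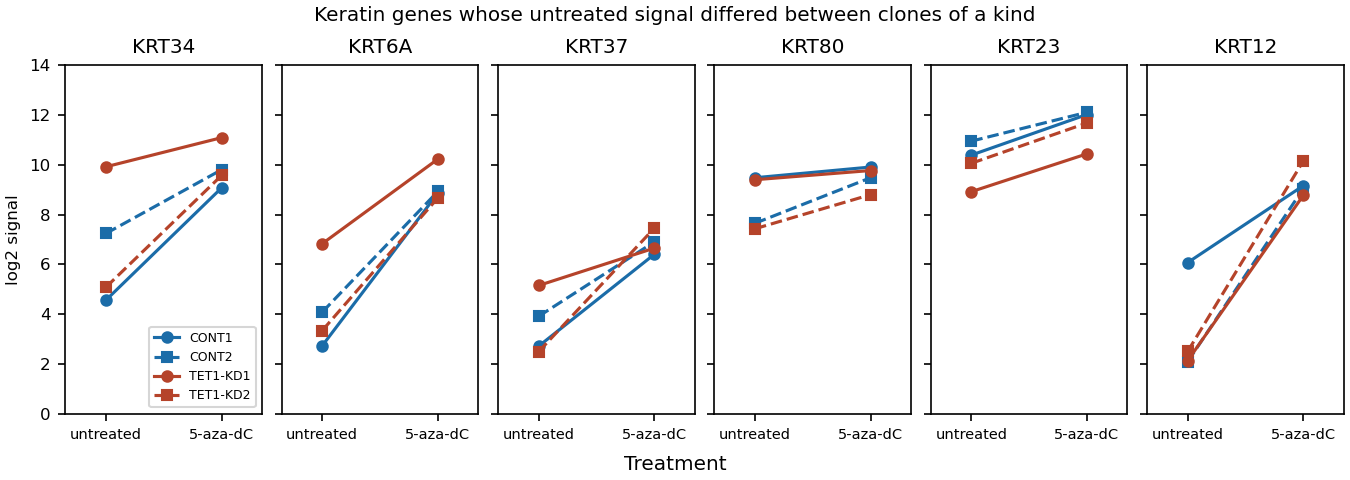
Log2 signal of 6 keratin genes in the 4 clones without drug and after 5-aza-dC, with 1 line per clone, control clones in blue and knockdown clones in red. *KRT34*, *KRT6A* and *KRT37* started highest in TET1-KD1 (9.92, 6.83 and 5.15), *KRT80* split by clone number, and *KRT12* started high in CONT1 alone (6.07).

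After 5-aza-dC, 5 keratin genes were higher and 1 was lower in knockdown than in control clones (18.8%), against 18.4% of all tested genes, of which 10.7% were higher and 7.71% lower. The share is close to that of all genes, and the comparison runs across the slides. The higher ones were *KRT3* (at least 5.69-fold, as the treated control signals were not above background), *KRT83* (log2 difference 2.02), *KRT73* (1.01), *KRT8* (0.95) and *KRT31* (0.92), and the lower one was *KRT81* (-1.32). Of these, the *KRT31* difference had an adjusted p of 0.0494 and the *KRT8* difference of 0.0382. None of the 8 basal and stress keratins passed in this comparison, and the interval of the *KRT17* difference ran from -0.08 to 1.39. The response itself differed between the kinds of clone for 3 keratin genes (9.38%), *KRT3*, *KRT73* and the shared *KRT83* probe, against 5.27% of all genes, or 3.63% in the same direction. Only the *KRT3* difference passed whichever array was left out. For *KRT9*, above background throughout, the difference in response was 0.57 (95% confidence interval -1.22 to 2.37), an interval too wide to detect a difference of that size with 2 clones per condition.

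The genes were also read in their order along the chromosomes, as a description with no test of neighbours. On chromosome 17, *KRT9*, *KRT14*, *KRT16* and *KRT17* follow one another, and *KRT9*, *KRT14* and *KRT17* were higher in both kinds of clone while *KRT16* did not pass (probes from chr17:39722093 to chr17:39777035, hg19). Their neighbours *KRT13*, *KRT15* and *KRT19* did not pass the test in either kind. On chromosome 12, *KRT6B*, *KRT6C*, *KRT6A* and *KRT5* are consecutive (chr12:52840556 to chr12:52908681), and all 4 were higher in the control clones. Of these 8 genes, *KRT5*, *KRT6A*, *KRT6B*, *KRT6C*, *KRT14*, *KRT16* and *KRT17* were tested only through treated arrays. Between *KRT5* and *KRT78* most of the type II genes were not tested, and *KRT73* and *KRT3* in this stretch were lower in the control clones. At the end of the cluster, *KRT8* and the type I gene *KRT18* lie side by side, and in the control clones their brightest probes were called in opposite directions. The other probes of both genes did not pass there. By interpolation on the spike-ins the *KRT18* difference turned its sign, and the comparison runs across the slides.

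**Figure D4:**
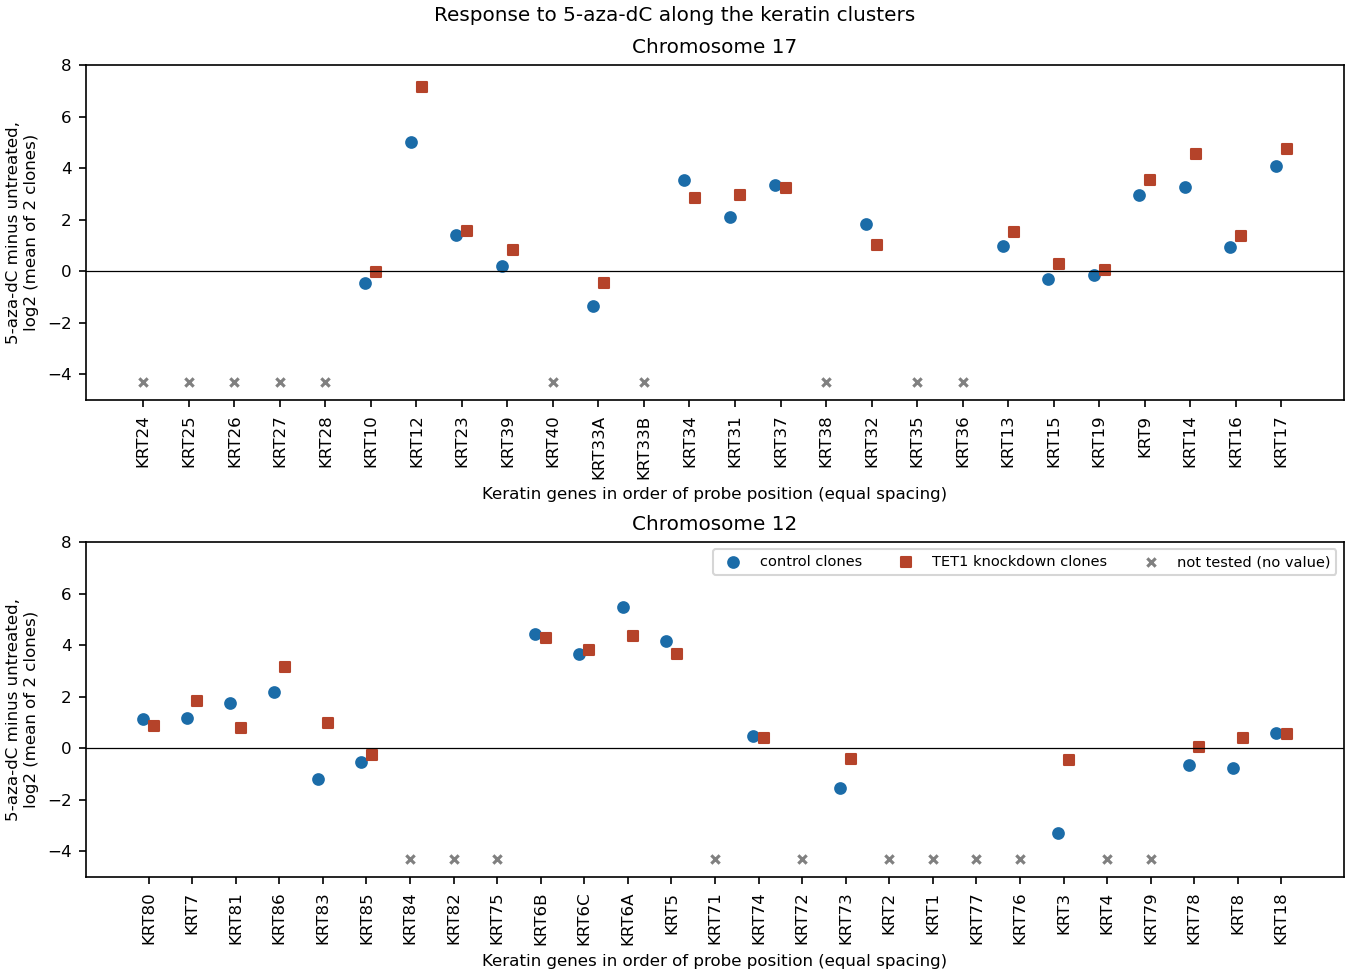
Mean treated minus untreated log2 signal of the keratin genes in the order of their probes on chromosome 17 (top) and chromosome 12 (bottom), at equal spacing, with control clones as circles and *TET1* knockdown clones as squares. Crosses mark genes that were not tested and have no value. The runs *KRT9* to *KRT17* and *KRT6B* to *KRT5* lie above 0, with most untreated signals there not above background, while *KRT13*, *KRT15* and *KRT19* lie between -0.29 and 1.52.

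The proteins that anchor keratin filaments at desmosomes and hemidesmosomes, or link them as plakins, are the partners of the keratins. Of 18 tested genes 3 were higher and 0 lower in the knockdown clones (16.7%, against 12.5% of all genes), with a median of 0.16. The plakin *EPPK1* was higher by 1.08 on the log2 scale (adjusted p = 0.00657). The desmosomal plakophilin *PKP1* (at least 2.53-fold, adjusted p = 0.0208) and the desmosomal cadherin *DSG3* (at least 1.29-fold, adjusted p = 0.0115) were above background on the treated knockdown arrays alone and were tested only through them. In control clones 16.7% were called, against 41.8% of all genes. There *EPPK1* was higher (0.54, adjusted p = 0.0307), and *DSG2* (-0.97) and *PLEC* (-1.47) were lower. Of 14 tested genes of other intermediate filaments, 5 were higher and 1 lower in the knockdown clones (42.9%, against 12.5% of all genes). In the control clones 6 were higher and 0 lower (also 42.9%, near the 41.8% of all genes). With dim signals at their lower bounds the medians were 1.01 and 0.73. The neurofilament gene *NEFH* had log2 signals of 1.99 and 2.37 before and 11.46 and 12.18 after the drug in the knockdown clones, at least 171.1-fold (adjusted p = 4.3e-05). *VIM*, which encodes vimentin of mesenchymal cells, went from 7.92 and 7.23 to 12.79 and 13.37 (5.51, SE 0.45, adjusted p = 7.3e-04). Among the neuronal filament genes, *NEFM* was at least 4.61-fold higher (adjusted p = 0.0235) and *INA* differed by 4.01 (adjusted p = 0.00157). *NEFH* and *NEFM* were above background on treated arrays alone, and *INA* also on 1 untreated array. *NEFH*, *NEFM* and *INA* were thus tested only through their treated arrays, whereas *VIM* was above background on all 8 arrays. Of 6 tested cornified envelope genes, 3 were higher and 0 lower in the knockdown clones (50%, against 12.5% of all genes). *SBSN*, above background on all arrays, was higher by 3.68 (adjusted p = 0.0360). *CSTA* was at least 4.39-fold higher (adjusted p = 0.0282), and *SPRR2A*, which was tested only through the treated knockdown arrays, at least 3.10-fold (adjusted p = 0.0291). In control clones *SBSN* was higher (3.08) and *SPRR3* at least 1.73-fold lower, 33.3% of the genes in all, against 41.8% of all tested genes.

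Markers of other cell types were read on the same arrays. Of 7 keratinocyte markers other than keratins, *DSG1*, *FLG*, *IVL*, *LOR* and *TP63* were above background on no array, and only *SBSN* was on all 8. Their summed signal, on the linear scale, was 107.9 to 409.6 on the untreated and 780.7 to 2470 on the treated arrays. These sums were carried mostly by *SBSN*, with log2 signals of 6.18 to 8.53 untreated and 9.50 to 11.23 treated. Of 5 fibroblast markers, *COL1A2*, *COL3A1* and *LUM* were above background on no array, and the sum was 332.8 to 450.8 on the untreated and 605.5 to 853.9 on the treated arrays. Of 5 leukocyte markers 4 were above background on all arrays, with sums of 2795 to 4024 untreated and 2752 to 5257 treated, and of 3 endothelium markers 0 were, with sums of 94.6 to 115.1 and 192.8 to 286.3. The leukocyte sums were carried by *CD79A*, which differed by -0.08 (adjusted p = 0.878) and -0.37 (adjusted p = 0.572) in control and knockdown clones. *CD14* was higher by 2.75 (adjusted p = 5.3e-04) and 1.60 (adjusted p = 0.00951), and *CD3D* by 3.48 (adjusted p = 0.00433) and 2.84 (adjusted p = 0.0240). The brightest *PTPRC* probe was higher in the control clones (1.56, adjusted p = 0.0145). A second tested *PTPRC* probe, above background on untreated arrays alone, was lower in control (-0.74, adjusted p = 0.0142) and knockdown clones (-0.84, adjusted p = 0.0246). Of the tested markers, 3 of 4 leukocyte, 2 of 3 endothelium and 2 of 2 fibroblast genes were higher in the control clones, and 2, 1 and 0 were in the knockdown clones. Of all genes 20.5% and 9.45% were higher. The fibroblast gene *DCN* and the endothelium gene *PECAM1*, both among those higher in the control clones, were above background on no untreated array. They were tested only through treated arrays, so their direction was partly fixed by the filter. For *VWF*, the other endothelium gene that was higher, a second tested probe differed by -1.57 in the control clones (adjusted p = 0.0623). The remaining endothelium gene, *CDH5*, was lower in the control clones (-2.10, adjusted p = 0.0190). The part of such cells in the keratin signals was not tested.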

How the data were processed

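RNA of 4 HCT116 clones, each with and without 5-aza-dC, was hybridized to 8 one-color arrays (SurePrint G3 Human GE, 60-base probes). The authors deposited background-subtracted spot intensities from Agilent Feature Extraction 10.7.3.1 (per the file headers), not scaled between arrays, and a table of the same intensities, which differed from the scanner files by at most 0.497%. Each intensity was divided by its array's 75th percentile (395.5 to 623.7), multiplied by the percentiles' geometric mean over the arrays, floored at 1 and taken to log2. Non-uniform, outlier and hand-flagged spots (229 to 329 per array) were left out, 0 spots were saturated, and spots of one probe were averaged. A share of 0.5 or more of spots well above background counted a probe as above background, and 27287 probes reached this in every array of 1 condition or more and were tested. One limma 3.58.1 fit (R 4.3.3) with 4 group means covered all tested probes, with Benjamini-Hochberg adjustment and a threshold of 0.05. A gene's value is that of its brightest tested probe. Named were the 29 keratin genes above background on all 8 arrays or past the threshold in at least 1 of 5 contrasts, *TET1*, at most 4 genes per companion list, and the markers by list. *PLEC*, *KRT39*, *CD79A*, *CD14*, *CD3D*, *CDH5*, *VIL1*, *DCN*, *PECAM1*, *PTPRC* and *VWF* were named, and *ELF3* and *EPCAM* given with values, after their values were seen. Members and lists were chosen with earlier results of these data known. Clone numbers pair treated with untreated arrays of one clone, whose deviations correlated at 0.198 in control and 0.476 in knockdown clones, and the clone was a block in an alternative. The fit was checked on simulated data with 100 probes changed by 1 and 100 by 2 on the log2 scale, fewer than passed here. For the drug effect in knockdown clones 12% and 64% were recovered, with 3.80% of calls false. For the difference in response 0% of either size were recovered. Precision is limited by 2 clones per condition, and nothing states whether further cultures were pooled. Promoter sequences are from RefSeq (GRCh38.p14), and figures were drawn with matplotlib 3.10.9. The remaining alternatives were normexp (offset 50) as background correction, quantile normalization, other filters and offsets, flagged spots kept, fewer arrays in the fit, a GC trend removed (loess, span 0.5), interpolation on 7 spike-ins, the methods' t-test, a minimum 2-fold change, any probe of a gene, the authors' value table and each array left out. GeneSpring GX was used by the authors, and its normalization is not given in the sources used here.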

Additional observations from a re-analysis of the deposited data

Results flagged for a closer look

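For 3 keratin genes the test of the difference itself found unequal drug responses in control and knockdown clones. The knockdown minus the control response was 2.86 on the log2 scale for *KRT3* (adjusted p = 0.00747), 2.17 for the *KRT83* probe that is shared with other hair keratin genes (adjusted p = 0.0211) and 1.16 for *KRT73* (adjusted p = 0.0409). In each case the control clones fell (-3.30, -1.19 and -1.56) while the knockdown clones differed by -0.44, 0.98 and -0.40. The treated control arrays are those of the second slide, so slide and response cannot be told apart for these genes. The second *KRT83* probe was higher in both kinds of clone, at least 8.64-fold (control) and at least 9.07-fold (knockdown), with untreated signals not above background.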

How the results depend on the processing

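Precision is limited by 2 clones per condition. In the control clones, 10 of the keratin genes passed when a probe had to be above background everywhere (on 8 arrays) and 4 by the methods' t-test, and 11 to 20 when 1 array was left out. In the knockdown clones, 4 passed with the filter on all 8 arrays, 6 with only the groups compared, 7 with only the first slide and 0 by the methods' t-test, and 4 to 9 when 1 array was left out. The filter on all 8 arrays leaves out genes dim in any condition. The methods' t-test passed 0 of all tested probes in the knockdown clones, so its 0 there is not specific to keratins. Between the kinds of clone after 5-aza-dC, 2 passed with only the groups compared and 0 by the methods' t-test, and without drug 0 passed under each of the alternatives. The difference in response passed for 1 gene with the GC trend removed, with or without the replicate block, and for 1 to 2 when 1 array was left out. With the replicate block, 22 keratin genes passed in the control clones, 12 in the knockdown clones, 0 without drug, 7 after the drug and 2 for the difference in response. After the drug the block added *KRT39* (0.88, adjusted p = 0.0469), and the other single calls it changed are given with the genes above. By interpolation on the spike-ins, *KRT18* in the control clones turned from 0.61 to -0.16, and *KRT10* (-1.08) and *KRT19* (-0.96) passed as lower there. Leaving out 1 array moved *KRT85* in the control clones between -1.87 and 0.77, and in the treated clones between -1.24 and 1.39, turning its sign without the treated CONT2 array. The cause was not tested.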
